A study of Mus musculus with 45 samples.

Results

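Visceral adipose tissue (VAT) of male mice lacking the transcriptional repressor Blimp1 in regulatory T cells (Treg) and VAT of female mice both held Treg with low levels of Il1rl1, and RNA-seq of these Treg was compared. The comparison used 4 of the 45 libraries of the series, chosen by their labels alone. A pair of libraries came from male mice of the genotype Blimp1fl/flFoxp3cre, each a pool of 5 mice, and a pair from RFP+ Treg of female Foxp3RFP mice, each a pool of 4 mice, all at 25 weeks of age. All were on the C57BL/6 strain. The labels give a YFP+ sort for the first Blimp1-deficient pool and name no marker for the second. In the Blimp1-deficient mice Cre is produced from Foxp3, so the deletion is directed to Foxp3-expressing cells, and the female mice carried a reporter with no Cre. Sex, the Blimp1 deletion, and the Cre or reporter allele therefore differ together in this comparison and cannot be told apart by it. Further groups served as points of reference. They were male Foxp3RFP VAT Treg (2 pools of 4 mice, 25 weeks), male Foxp3cre VAT Treg with no floxed allele named (1 pool of 4 mice, 25 weeks, whose source label names spleen while its title and tissue name VAT), and spleen Treg. The spleen libraries came from Blimp1fl/flFoxp3cre and Foxp3cre males (2 pools of 4 mice each, 25 weeks) and from Foxp3RFP females and males (2 pools of 3 mice each, age not given). Genes on chromosomes X and Y were left out of all results.

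Treg are CD4 T cells that express the transcription factor Foxp3 and restrain immune responses. In visceral fat of male mice a distinct Treg population accumulates that depends on PPARγ and on IL-33, sensed through the receptor ST2 encoded by Il1rl1, and that expresses Klrg1, Ccr2 and Il10. Blimp1, encoded by Prdm1, is a zinc finger repressor that marks effector Treg, promotes Il10 and restrains genes of resting and follicular lymphocytes such as Tcf7, Bcl6 and Cxcr5. Tcf7 encodes the transcription factor TCF1, and Cxcr5 encodes the receptor that guides cells into B cell follicles.

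The labels were checked first. Foxp3, the defining gene of Treg, stood at 189 and 113 CPM (read counts scaled to a common library size, here by total reads only) in the Blimp1-deficient pools and at 499 and 429 CPM in the female pools. It stood at 754 and 604 CPM in the male reporter pools, at 209 CPM in the Foxp3cre control, and between 0 and 4.53 CPM in the VAT CD4 T cell libraries of the series. The Blimp1-deficient libraries were thus lower in Foxp3 than the female libraries but above the CD4 libraries. Xist was at 0 in both Blimp1-deficient libraries and at 167 and 84.2 CPM in the female ones, as their labelled sex requires. Prdm1 itself stood at 118 and 146 CPM (scaled as below) in the Blimp1-deficient and at 153 and 88.1 CPM in the female pools, which overlap. Reads were counted over the whole gene, so this level does not check the deletion of a part of it.

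The Blimp1-deficient libraries held 39344438 and 35282734 reads assigned to genes, and the female ones 26667263 and 25872221. Female pool 2 stood apart in markers of fat stroma. Its 10 fibroblast markers summed to 2206 CPM against 219 CPM in female pool 1 and 95.5 and 118 CPM in the Blimp1-deficient pools. Its 10 adipocyte markers summed to 1458 CPM, against 89.3, 68.1 and 61.5 CPM in the same order, and its 11 endothelial markers to 1522 CPM, against 120, 86.7 and 89.9 CPM. Macrophage markers (14 genes) were low in female pool 1 alone, at 203 CPM against 1743 CPM in female pool 2 and 1854 and 1404 CPM in the Blimp1-deficient pools. The sum of 10 B cell markers was 3157 and 1911 CPM for the female pools, against 1033 and 1286 CPM for the Blimp1-deficient pools. Among the defining markers, the B cell factor Pax5 was at 0 in Blimp1-deficient pool 1 and female pool 2, the endothelial receptor Kdr in Blimp1-deficient pool 1, and the adipocyte gene Plin1 in Blimp1-deficient pool 1 and female pool 1, while no fibroblast marker was at 0. Their part in the differences reported here was not tested. In such pooled cells, fewer cells of a type and less RNA per cell cannot be told apart.

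Few genes separated the Blimp1-deficient from the female VAT Treg. The edgeR quasi-likelihood test called 3 of 16162 autosomal genes at an adjusted p under 0.05 (0.0186%), 1 higher (0.00619%) and 2 lower (0.0124%) in the Blimp1-deficient cells. The higher gene was Nkg7, which encodes a membrane protein of cytotoxic granules. The lower ones were Abcg1, which encodes a cholesterol exporter, and Igkv17-127, an immunoglobulin gene segment. At an unadjusted p under 0.05 there were 1266 genes (7.83%), 451 higher (2.79%) and 815 lower (5.04%). DESeq2 called 204 genes (1.26%), 70 higher (0.433%) and 134 lower (0.829%), 200 of the 204 having an unadjusted p under 0.05 in edgeR. Some of the 134 were at 0 in both Blimp1-deficient pools and high mainly in 1 female pool. Examples are Aqp7 (1.25 and 29.6 CPM in female pools 1 and 2), Nes (0.963 and 28.0 CPM) and the immunoglobulin segment Igkv4-80 (32.8 and 0.771 CPM). When genes of chromosomes X and Y were removed before the fit, edgeR called none of the autosomal genes, with Nkg7 and Abcg1 both at an adjusted p of 0.0623. The few calls do not show that the other genes were alike. The 95% interval of the log2 fold change lay wholly between -1 and 1 for 3278 genes (20.3% of those tested), which is 33% of the 9948 genes that averaged at least 5 CPM in the 4 libraries. For the other genes a difference of more than 2-fold in at least 1 direction lay within the interval, or no interval could be given. Both Blimp1-deficient pools lay above both female pools in 18.7% of the 16162 genes and below both in 23%. A lack of overlap between the groups was thus common and by itself sets no gene apart.

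**Figure D1:**
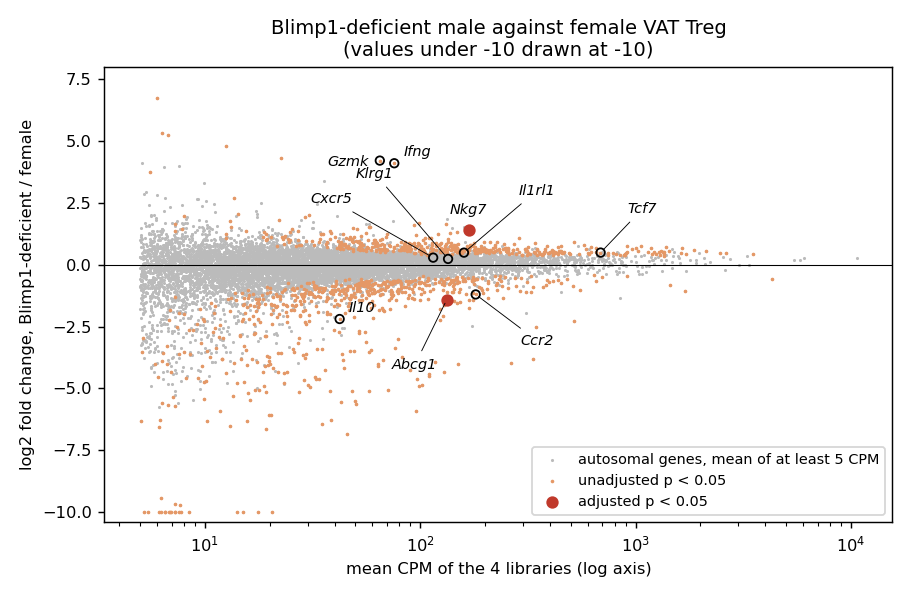
Log2 fold change of Blimp1-deficient over female VAT Treg (vertical axis) against mean CPM of the 4 libraries (horizontal axis, log), for autosomal genes averaging at least 5 CPM. Red points are called genes, orange points have an unadjusted p under 0.05, and black circles mark genes named in the text; Nkg7 and Abcg1 are the called genes drawn, and Igkv17-127 falls below the 5 CPM limit.

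Markers of Il1rl1-high fat Treg were low in both groups. Il1rl1 (chr1:40404864-40465418 in GRCm38) stood at 189.8 and 183 CPM in the Blimp1-deficient pools and at 117 and 149 CPM in the female pools. It stood at 2524 and 1874 CPM in the male reporter pools and at 1860 CPM in the Foxp3cre control. Both Il1rl1-low groups lay far below all 3 Il1rl1-high libraries, and between themselves the Blimp1-deficient pools lay slightly higher without overlap. That difference was 0.49 on the log2 scale (SE 0.24, 95% interval -0.02 to 1.00, edgeR adjusted p = 0.686), so it was bounded within a doubling without being called.

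Klrg1, which encodes an inhibitory receptor of differentiated lymphocytes, stood at 165 and 126 CPM in the Blimp1-deficient, 118 and 129.6 CPM in the female, and 2148 and 1966 CPM in the male reporter pools. The Blimp1-deficient and female values overlapped, with a log2 fold change of 0.23 (SE 0.40, 95% interval -0.61 to 1.07). Cd44, a receptor of antigen-experienced T cells, stood at 305 and 337 CPM against 312 and 299.9 CPM, a log2 fold change of 0.07 (95% interval -0.40 to 0.54), with 1087 and 800.3 CPM in the male reporter pools. Gata3, a transcription factor of type 2 and tissue Treg, stood at 108 and 80.5 CPM against 145 and 153 CPM. Its groups did not overlap, and its log2 fold change was -0.66 (95% interval -1.47 to 0.15). Areg, which encodes the repair factor amphiregulin, stood at 203 and 199.8 CPM in the Blimp1-deficient pools, inside the female range of 80.6 to 255 CPM, and its value of 0.26 was -0.34 without female pool 2.

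Within the same set of markers a second group of genes had lower values in the Blimp1-deficient cells. Ccr2, which encodes a chemokine receptor for CCL2, stood at 125 and 94.4 CPM in the Blimp1-deficient, 183 and 322 CPM in the female, and 1946 and 1345 CPM in the male reporter pools. The 3 groups did not overlap and stood in that order. The log2 fold change of Blimp1-deficient over female cells was -1.20 (SE 0.31), with an adjusted p of 0.248 in edgeR and 0.0284 in DESeq2; without female pool 2 it was -0.74. Fgl2, which encodes a secreted suppressive protein, stood at 162 and 137 CPM against 262 and 351 CPM, a log2 fold change of -1.03 (SE 0.26, adjusted p = 0.246 in edgeR and 0.0289 in DESeq2). Il10, which encodes an anti-inflammatory cytokine, stood at 16.4 and 13.8 CPM in the Blimp1-deficient and at 82.1 and 56.6 CPM in the female pools, against 972 and 1172 CPM in the male reporter pools. All 3 groups were again separate. The log2 fold change was -2.20 (SE 0.89, edgeR adjusted p = 0.546), with a value of -2.44 without female pool 2 and -1.90 without female pool 1. It was called (adjusted p = 0.00188) in a fit chosen after the values were seen, which left out the 4 T cell libraries highest in markers of other cells, none of them from the 4 libraries compared. Ccr3, a chemokine receptor gene, stood at 8.15 and 4.81 CPM against 29.9 and 38.8 CPM (log2 fold change -2.40, edgeR adjusted p = 0.338).

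Across all 20 visceral fat Treg markers none was called in the comparison of Blimp1-deficient and female cells. The median log2 fold change was 0.04, against -0.06 over all autosomal genes, and 6 of the 20 had an interval within -1 and 1. An unadjusted p under 0.05 was reached by 2 members upward, Cxcr6 (0.67) and Id2 (0.62), and by 4 downward, Ccr2, Fgl2, Il10 and Ccr3. Over all genes 2.79% reached it upward and 5.04% downward. Without female pool 2 the median was -0.35, with 2 members upward and 6 downward at that threshold. Against the male reporter pools, which both comparisons share as controls, 10 of the 20 markers were called lower and 1 higher in Blimp1-deficient cells (of all genes 2.89% were called, 1.27% lower and 1.62% higher). In female cells 11 were called lower and 1 higher (of all genes 1.66%, with 0.73% lower and 0.928% higher). For Il1rl1 the log2 fold changes against male reporter cells were -3.56 and -4.05, for Klrg1 -3.82 and -4.05, for Cxcr6 -2.93 and -3.60, for Ccr2 -3.91 and -2.71, and for Il10 -6.15 and -3.95, the Blimp1-deficient value given first in each case.

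**Figure D2:**
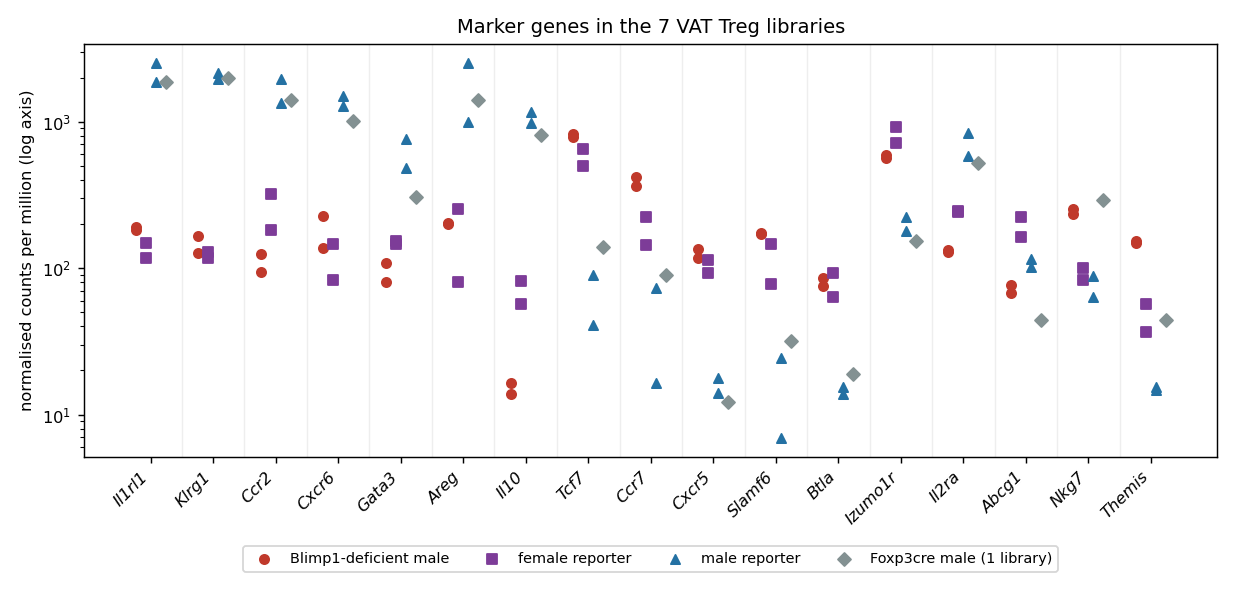
Normalised CPM (log axis) of 17 genes in the 7 VAT Treg libraries, 1 point per library, with Blimp1-deficient males as circles, female reporter as squares, male reporter as triangles and the single Foxp3cre male library as diamonds. Il1rl1 and Klrg1 sit between 117 and 189.8 CPM in the Blimp1-deficient and female libraries and at 1860 CPM or more in the other 3. Il10, Abcg1, Nkg7 and Themis are separate between the Blimp1-deficient and female libraries, as are Il1rl1, Ccr2, Gata3, Tcf7, Ccr7, Cxcr5, Izumo1r and Il2ra.

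Genes of resting, lymphoid-homing and follicular T cells were high in both Il1rl1-low groups. Tcf7 stood at 788 and 819 CPM in the Blimp1-deficient and at 647 and 499 CPM in the female pools, against 90.3 and 40.9 CPM in the male reporter pools and 139 CPM in the Foxp3cre control. The Blimp1-deficient pools were the highest of the 7, without overlap with the female pools, and the log2 fold change between them was 0.49 (SE 0.29, 95% interval -0.13 to 1.10, edgeR adjusted p = 0.762). Cxcr5 stood at 118 and 134 CPM against 114 and 93.0 CPM, and at 17.8 and 14.0 CPM in the male reporter pools. Its log2 fold change of 0.28 had a 95% interval of -0.22 to 0.79, so a 2-fold difference in either direction lay outside it.

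Several genes of this state had nearly equal values. Btla, an inhibitory receptor gene of follicular and naive T cells, stood at 75.7 and 85.0 CPM against 92.4 and 63.6 CPM (log2 fold change 0.04, 95% interval -0.41 to 0.50). Cd200, a follicular T cell surface gene, stood at 77.0 and 76.3 CPM against 84.7 and 67.5 CPM (0.01, 95% interval -0.82 to 0.84). Others leaned one way. Ccr7, the receptor for lymph node chemokines, stood at 417 and 365 CPM against 223 and 144 CPM (log2 fold change 1.09, SE 0.51), and S1pr1, the receptor for exit from lymphoid organs, at 695 and 758 CPM against 434 and 409 CPM (0.79, SE 0.31). Id3, an inhibitor of E proteins, stood at 19.0 and 21.7 CPM against 39.8 and 87.5 CPM (-1.65, SE 0.58, and -0.97 without female pool 2). The Ccr7, S1pr1 and Id3 groups did not overlap, and none of the 3 was called in edgeR (adjusted p between 0.459 and 0.636).

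Of the 15 resting and lymphoid-homing genes none was called, the median was -0.06, and 6 had an interval within -1 and 1. Against male reporter cells 7 were called higher in Blimp1-deficient cells (1.62% of all genes), and 5 higher and 1 lower in female cells (0.928% and 0.73% of all genes). Of the 18 follicular T cell genes none was called, the median was 0.03, and 8 had an interval within -1 and 1, where 20.3% of all genes and 33% of those averaging at least 5 CPM had one. Against male reporter cells 10 were called higher in Blimp1-deficient and 8 in female cells (1.62% and 0.928% of all genes). Maf, a transcription factor gene of follicular and Il10-producing T cells, stood at 108 and 112 CPM against 304 and 181 CPM without overlap (log2 fold change -1.14, SE 0.29, adjusted p = 0.246 in edgeR and 0.0195 in DESeq2). The 18 genes described as repressed by Blimp1 in lymphocytes, a list that shares Tcf7, Cxcr5 and other members with those above, had a median of 0.19 and no called member. Bcl6, the repressor that directs follicular T cells, stood at 56.1 and 53.1 CPM against 52.1 and 25.9 CPM, and at 19.4 and 12.0 CPM in the male reporter pools.

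Treg core genes had more members lower at an unadjusted p than any other of the 18 pathway lists, though none was called. Of 16 autosomal members 8 had an unadjusted p under 0.05 downward and none upward, against 5.04% and 2.79% of all genes, and the median log2 fold change was -0.60. Against male reporter cells, the controls of both, the list median was -0.23 in Blimp1-deficient and 0.32 in female cells. In 12 of the 16 both Blimp1-deficient pools lay below both female pools, which held for 23% of all genes. Il2ra, which encodes the IL-2 receptor α chain CD25, stood at 129.8 and 133 CPM against 247 and 240.2 CPM (log2 fold change -0.89, SE 0.34, edgeR adjusted p = 0.51), and at 842 and 583 CPM in the male reporter pools. Ikzf2, which encodes the Treg transcription factor Helios, stood at 227 and 289.7 CPM against 641 and 337 CPM (-0.92, SE 0.28, and -0.39 without female pool 1). Male reporter pools held 434 and 277 CPM of Ikzf2. Tigit, an inhibitory receptor gene, stood at 366 and 361 CPM against 737 and 580.5 CPM (-0.86, SE 0.24, adjusted p = 0.292 in edgeR and 0.0369 in DESeq2). Its male reporter values were 374 and 506 CPM. The Il2ra, Ikzf2 and Tigit groups did not overlap.

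Other Treg genes differed less. Ctla4, which encodes a co-inhibitory receptor, stood at 535 and 437 CPM within the female range of 347 to 870.1 CPM. Its value was -0.32 with both female pools and 0.49 without female pool 1. Il10ra, the IL-10 receptor gene, stood at 111 and 103 CPM against 102 and 93.0 CPM (0.13, 95% interval -0.32 to 0.59), while male reporter cells held 863 and 622 CPM. Without female pool 2 the Treg core list again had 8 members downward and none upward, with a median of -0.76. In spleen Treg the same genotypes gave a median of -0.29 for this list, with 1 member called lower (0.346% of all genes). There Il2ra was at 0.13, Ikzf2 at 0.25, and Tigit, which was called, at -1.145 (edgeR adjusted p = 0.0223). Foxp3, on chromosome X and read only as a check, also stood lower in the Blimp1-deficient libraries, as given above. The Foxp3cre control, with no named deletion, also lay below both female pools in Foxp3 (209 CPM), Ikzf2 (243 CPM) and Tigit (448 CPM). It lay above both in Il2ra (524 CPM) and Ctla4 (1622 CPM). Tigit was also called lower in Foxp3cre than in reporter male spleen Treg (-1.37, edgeR adjusted p = 0.0316). The part of the Cre or reporter allele in these values was not tested. Among the 20 inhibitory and co-stimulatory receptors Tnfrsf1b, which encodes TNF receptor 2, stood at 328 and 394 CPM against 879 and 605 CPM (-1.04, SE 0.21, adjusted p = 0.104 in edgeR and 1.18e-05 in DESeq2), and Lag3 at 184 and 209 CPM against 530 and 315 CPM (-1.11, SE 0.48). The Foxp3cre control stood at 286 CPM for Tnfrsf1b, below both Blimp1-deficient pools.

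Nkg7 (chr7:43437138-43438246) was the gene called higher. It stood at 255 and 232 CPM in the Blimp1-deficient and at 101 and 83.4 CPM in the female pools, without overlap, which is 1.40 on the log2 scale (SE 0.22, adjusted p = 0.019 in edgeR, DESeq2 adjusted p = 7.76e-08). The Foxp3cre control, which has no named deletion of Blimp1, stood at 293 CPM, above both Blimp1-deficient pools, and the male reporter pools at 89.0 and 63.3 CPM. The log2 fold change of the single Foxp3cre library over the male reporter pools was 1.945. Nkg7 was thus high in all 3 VAT libraries from Foxp3cre males and low in all 4 from reporter mice. It lost its call when any 1 of the 4 libraries was left out, with log2 fold changes between 1.27 and 1.55, 1.27 being the value without female pool 2. Abcg1 (chr17:31057694-31117984) stood at 67.4 and 76.1 CPM in the Blimp1-deficient, 223 and 164 CPM in the female, 101 and 116 CPM in the male reporter pools, and 44.2 CPM in the Foxp3cre control. The difference on the log2 scale was -1.43 (SE 0.22, edgeR adjusted p = 0.0175, DESeq2 adjusted p = 2.21e-09), and it was still called without female pool 2 (-1.63, adjusted p = 0.019) but not without any of the other 3 libraries. As for Nkg7, the Foxp3cre control lay on the side of the Blimp1-deficient pools. Igkv17-127 had no reads in the Blimp1-deficient pools and 55 and 69 reads in the female pools, at least 55.5-fold lower against a floor of 3 counts over the Blimp1-deficient group. It was also at 0 in the Foxp3cre control, and stood at 1.02 and 3.19 CPM in the male reporter pools.

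A few genes of type 1 T cells, which make interferon γ, had large values in the Blimp1-deficient cells. Ifng itself stood at 132 and 154 CPM in the Blimp1-deficient pools, at 8.31 and 8.41 CPM in the female pools, at 7.49 and 6.75 CPM in the male reporter pools and at 64.0 CPM in the Foxp3cre control. The 3 libraries from Foxp3cre males were thus above the other 4. The log2 fold change was 4.10 (SE 1.02, edgeR adjusted p = 0.246, DESeq2 adjusted p = 0.102), and it was called in the fit without the 4 libraries named above (adjusted p = 2.94e-05). Gzmk, which encodes a granzyme, stood at 117 and 129 CPM against 8.63 and 4.73 CPM (log2 fold change 4.20, SE 1.20), and Il12rb2, a subunit of the IL-12 receptor, at 33.0 and 53.3 CPM against 2.75 and 1.58 CPM (4.32, SE 1.04, adjusted p = 0.231 in edgeR and 6.21e-05 in DESeq2). For Gzmk and Il12rb2 the Foxp3cre control, at 8.25 and 1.73 CPM, lay with the female libraries.

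Tbx21, the transcription factor gene of the type 1 state, differed little, at 65.3 and 64.3 CPM against 63.6 and 56.1 CPM (0.12, 95% interval -0.64 to 0.88). Of 15 type 1 genes Nkg7 alone was called, where 0.00619% of all genes were called higher. An unadjusted p under 0.05 was reached by 6 upward and none downward (2.79% and 5.04% of all genes), and the median was 0.43. The 10 markers of CD8 T and NK cells, a list that would also hold granzyme-expressing cells of other lineages, summed to 79.0 and 95.5 CPM in the Blimp1-deficient and 51.2 and 59.7 CPM in the female pools, and their part in these values was not tested. In spleen Treg the same genotypes gave log2 fold changes of -2.17 for Ifng, -0.52 for Gzmk and 0.59 for Il12rb2. The spleen Ifng groups overlapped, at 1.875 and 2.22 CPM in the Blimp1-deficient and 18.3 and 0 CPM in the female pools. Neither this spleen value (edgeR adjusted p = 0.41) nor the difference of Ifng between fat and spleen (edgeR adjusted p = 0.185) was called. Among 21 chemokine receptors 6 had an unadjusted p under 0.05 upward and 3 downward (2.79% and 5.04% of all genes), with a median of 0.67. Without female pool 2 these were 2 upward and 3 downward, with a median of 0.44. The list includes Cx3cr1, the fractalkine receptor gene, at 58.2 and 39.5 CPM against 6.10 and 18.3 CPM (2.00, SE 0.62).

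Themis, which encodes a signalling adaptor of the T cell receptor, was singled out after its values were seen, as one of 6 autosomal genes with an adjusted p between 0.05 and 0.1. It stood at 149 and 152 CPM in the Blimp1-deficient, 57.0 and 36.8 CPM in the female, and 14.7 and 15.3 CPM in the male reporter pools, and at 44.3 CPM in the Foxp3cre control. The log2 fold change was 1.68 (SE 0.32, edgeR adjusted p = 0.0767, DESeq2 adjusted p = 0.000293). The Blimp1-deficient pools were the highest of the 7. The other 5 were lower in the Blimp1-deficient pools in value, namely Tor4a (-1.05), AI467606 (-1.12), Macf1, a cytoskeletal linker gene (-2.64), the basement membrane collagen gene Col4a1 (-5.92) and Iglc1, an immunoglobulin constant region gene (-5.67). Col4a1 stood at 347 CPM in female pool 2 and 28.4 CPM in female pool 1, and its value was -3.19 without pool 2.

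Promoters, taken as 250 bases before to 50 bases after the annotated start from RefSeq (GRCm38.p6), were searched on both strands for AGNGAAAG, a core of the known Blimp1 motif. A match was found in 9.17% of the 12102 tested genes with a promoter in the table, in 6 of 51 genes that DESeq2 called higher (11.8%) and in 10 of 95 that it called lower (10.5%). None of the 17 key genes with a promoter held it, nor did Nkg7, while Abcg1 and Igkv17-127 had no promoter there. No match says only that these letters are not in this window. The promoters of Nkg7, the gene called higher, and of both annotated starts of Il1rl1, the gene that defines the shared state, are shown with the bases from the start onward in capitals. They lie on the plus strand at chr7:43436888-43437187, chr1:40429320-40429619 and chr1:40439379-40439678, and were chosen after the values were seen.
Nkg7: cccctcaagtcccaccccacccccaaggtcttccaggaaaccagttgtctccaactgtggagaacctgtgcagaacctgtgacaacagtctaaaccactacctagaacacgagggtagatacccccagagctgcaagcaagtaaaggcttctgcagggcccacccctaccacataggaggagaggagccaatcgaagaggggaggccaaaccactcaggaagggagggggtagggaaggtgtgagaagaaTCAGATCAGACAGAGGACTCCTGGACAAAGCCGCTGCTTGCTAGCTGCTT
Il1rl1 upstream start: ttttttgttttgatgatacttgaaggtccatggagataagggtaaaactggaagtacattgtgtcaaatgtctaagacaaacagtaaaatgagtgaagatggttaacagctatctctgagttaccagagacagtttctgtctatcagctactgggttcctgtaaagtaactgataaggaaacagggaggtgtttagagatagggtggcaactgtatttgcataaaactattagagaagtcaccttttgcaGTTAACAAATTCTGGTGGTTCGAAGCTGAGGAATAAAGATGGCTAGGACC
Il1rl1 downstream start: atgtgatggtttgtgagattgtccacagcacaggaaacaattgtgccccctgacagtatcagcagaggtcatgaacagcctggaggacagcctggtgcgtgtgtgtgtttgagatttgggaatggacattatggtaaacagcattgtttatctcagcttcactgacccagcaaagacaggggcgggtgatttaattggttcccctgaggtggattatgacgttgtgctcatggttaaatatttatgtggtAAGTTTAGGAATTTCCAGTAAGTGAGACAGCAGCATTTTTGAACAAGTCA

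The further lists had no called member in this comparison. Beside their counts given below, 2.79% of all genes had an unadjusted p under 0.05 upward and 5.04% downward. Interferon-stimulated genes had a median of -0.33, with 4 of 20 members downward and none upward at an unadjusted p under 0.05, and with both Blimp1-deficient pools below both female pools in 13 of 20, against 23% of all genes. Ifit1, an antiviral effector gene, stood at 2.01 and 3.47 CPM against 19.3 and 23.9 CPM, with 4.66 and 2.67 CPM in the male reporter pools (log2 fold change -2.97, SE 0.67, adjusted p = 0.164 in edgeR and 2.83e-05 in DESeq2). Cell cycle genes had a median of 0.79, with 5 of 20 members upward and none downward. Pcna, the replication clamp gene, stood at 234 and 205 CPM against 154 and 97.5 CPM (0.81, SE 0.25). The cell cycle median was 0.37 without female pool 2, with none of the 20 then at an unadjusted p under 0.05.

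Heat shock genes had a median of 0.55 and 4 of 15 members upward at an unadjusted p under 0.05, against 1 of 15 and a median of 0.44 without female pool 2, and Hspa8, a chaperone gene, stood at 1238 and 1047 CPM against 783 and 578 CPM (0.75, SE 0.22, adjusted p = 0.335 in edgeR and 0.024 in DESeq2). In spleen Treg the heat shock median was 1.47 and 5 of the 15 members were called higher, as were 0.749% of all genes. Immediate early and dissociation stress genes had a median of -0.01, with Egr2, an early response factor gene, at 9.12 and 22.3 CPM against 49.3 and 50.04 CPM (-1.66, SE 0.46). Lipid uptake, storage and synthesis genes had a median of -0.39 and 0.27 without female pool 2, and their member Fabp4, an adipocyte gene, was at 1176 CPM in that pool against 42.4 to 65.6 CPM in the other 3. Medians of the type 2, type 17, tissue residence and arachidonate lists lay between 0.15 and 0.30, and those of Treg effector molecules and of the inhibitory and co-stimulatory receptors were -0.32 and -0.19.

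**Figure D3:**
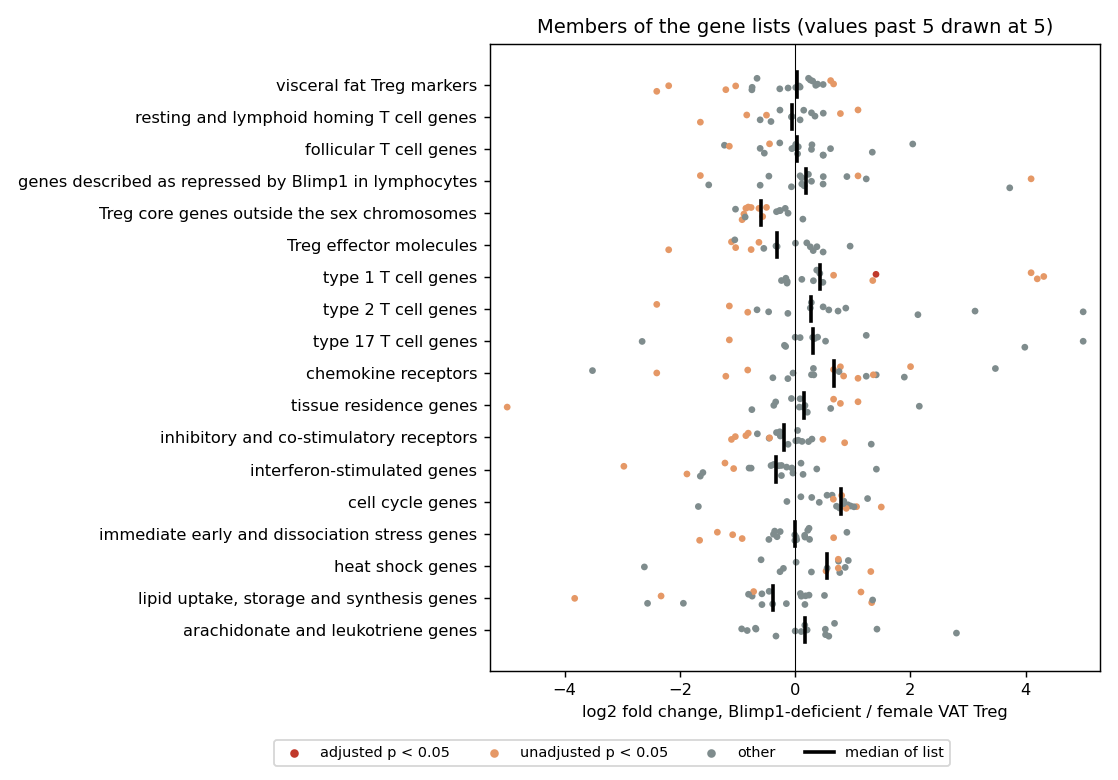
Log2 fold change of Blimp1-deficient over female VAT Treg for each autosomal member of 18 gene lists, 1 point per gene, with the median of each list as a black bar; values past 5 are drawn at 5. Nkg7 is the single red (called) point, the Treg core median lies at -0.60 and the cell cycle median at 0.79.

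The 4 libraries were also set beside the other VAT Treg libraries over the 10009 autosomal genes that averaged at least 5 CPM, as root mean square log2 differences between pairs of libraries. Blimp1-deficient and female pools differed by 0.907 to 1.42, Blimp1-deficient and male reporter pools by 1.25 to 1.45, and female and male reporter pools by 0.827 to 1.30. Replicates differed by 0.778 (Blimp1-deficient), 1.14 (female) and 0.827 (male reporter). The spread depended on the female pool. Female pool 1 was nearest to Blimp1-deficient pool 2, at 0.907, while female pool 2 was nearest to male reporter pool 2, at 0.827, a pool that also held stromal markers, with fibroblast markers at 1766 CPM. As median absolute differences, which weigh single extreme genes less, the Blimp1-deficient and female pools differed by 0.359 to 0.452, the Blimp1-deficient and male reporter pools by 0.475 to 0.539, and the female and male reporter pools by 0.36 to 0.449. By this measure the Blimp1-deficient pools lay nearer to the female pools than to the male reporter pools, and the female pools stood about as far from the one as from the other. The single Foxp3cre library lay at 0.47 and 0.441 from Blimp1-deficient pools 1 and 2. Pool 2 was thus nearer to it than to female pool 2, at 0.452, while pool 1 was nearer to both female pools. As root mean square differences it lay at 1.34 and 1.22, nearer than female pool 2, at 1.42 and 1.26, and farther than female pool 1.

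**Figure D4:**
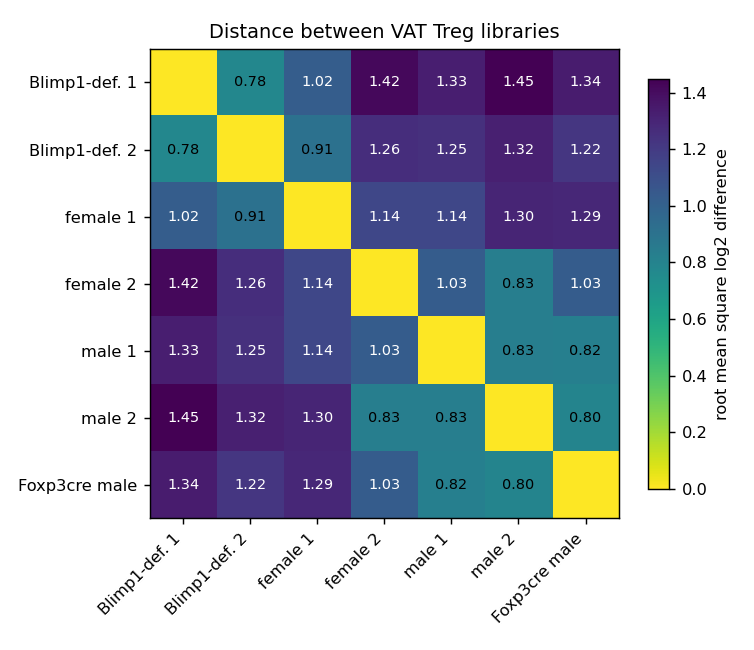
Root mean square log2 difference between each pair of the 7 VAT Treg libraries over 10009 autosomal genes, darker cells being farther apart. Blimp1-deficient pools lie 0.907 to 1.42 from the female pools, 1.25 to 1.45 from the male reporter pools and 1.22 to 1.34 from the Foxp3cre library. Female pool 2 lies 0.827 from male reporter pool 2.

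Genes that set male fat Treg apart from spleen Treg were then described in the Il1rl1-low groups. Male reporter VAT Treg had 1104 genes called (6.83%), 592 higher (3.66%) and 512 lower (3.17%) than male reporter spleen Treg. Both sets were chosen by the male reporter values, so larger medians in male reporter cells follow in part from that choice. The 592 include Col4a1, the basement membrane collagen gene, so not all of them need be genes of Treg. Over the 592 the median log2 fold change of VAT over spleen was 2.62 in male reporter cells, 1.01 in Blimp1-deficient cells and 1.37 in female cells. Of these, 88 were also called higher in Blimp1-deficient VAT over spleen Treg, where 119 genes were called higher (0.736%) of 215 called in all (1.33%). In female cells 153 were, where 240 were called higher (1.48%) of 286 in all (1.77%). The number called in both was 63, which is 63 of the 88 and 63 of the 153. Over the 512 genes called lower the medians were -1.51, -0.60 and -0.44 in the same order, with 65 called lower in Blimp1-deficient (0.594% of all genes) and 33 in female cells (0.285%). Between Blimp1-deficient and female VAT Treg directly, the 592 genes had a median log2 fold change of -0.51, against -0.06 over all genes, and none was called. This median was -0.19 without female pool 2 and -0.64 without female pool 1. The 512 genes had a direct median of 0.04, with 1 called lower and 247 that had an interval within -1 and 1.

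In spleen Treg of the same genotypes, sexes and alleles 177 genes were called (1.1%), 121 higher (0.749%) and 56 lower (0.346%) in Blimp1-deficient than in female cells. The fat and spleen comparisons share no library. The Blimp1-deficient spleen mice were 25 weeks old, and the age of the female ones is not given. The part of age in the spleen values was not tested. The difference of the log2 fold changes, fat minus spleen, was called for 10 genes (0.0619%), 3 more positive (0.0186%) and 7 more negative (0.0433%) in fat, and its median over all genes was -0.19. Nkg7 was among the 3, at 1.40 in fat and -0.77 in spleen, where it stood at 59.9 and 51.4 CPM in Blimp1-deficient and 102 and 88.7 CPM in female cells. Ly6c2, a surface protein gene of activated T cells and monocytes, was at 1.46 in fat and -2.82 in spleen. Ccr2 was lower in Blimp1-deficient cells of both organs in value, at -1.20 in fat and -2.88 in spleen, where it was called (edgeR adjusted p = 0.000147). Abcg1 was at -1.43 in fat and -0.20 in spleen, a difference that was not called. Il1rl1 in spleen was at 0.07 and Tcf7 at 0.49.

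**Figure D5:**
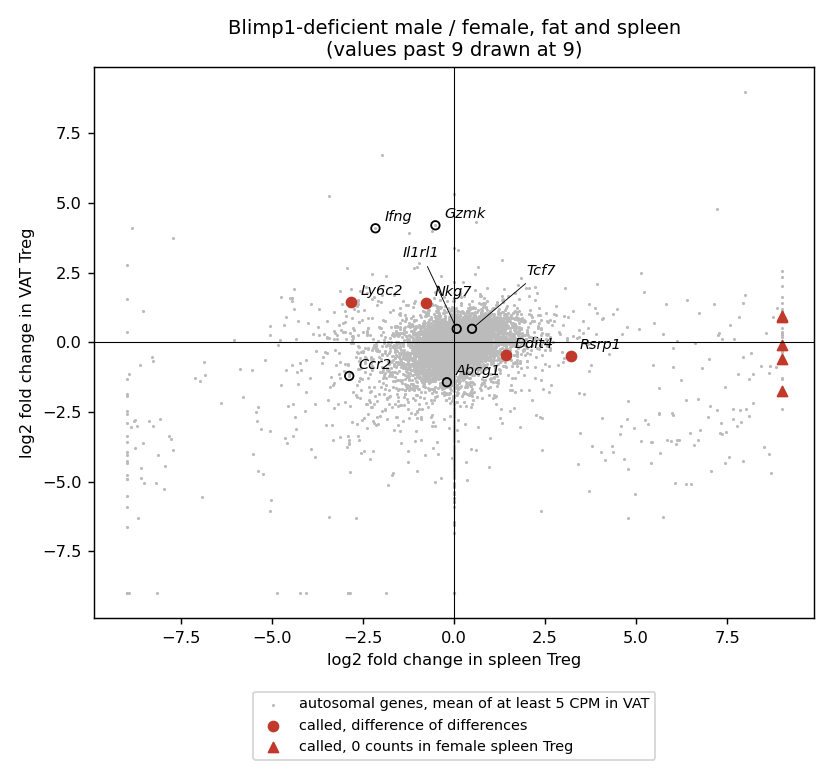
Log2 fold change of Blimp1-deficient over female Treg in VAT (vertical axis) against spleen (horizontal axis) for autosomal genes averaging at least 5 CPM in VAT; values past 9 are drawn at 9. Red symbols are 9 of the 10 genes whose 2 changes differ, triangles those with no reads in female spleen Treg; Nkg7 and Ly6c2 lie above and left of the main cloud, and Ddit4 and Rsrp1 to its right.

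The female spleen libraries held more RNA of other cells than the Blimp1-deficient ones. The summed B cell markers of female spleen Treg were 5697 and 5373 CPM against 1363 and 1379 CPM in the Blimp1-deficient libraries, with macrophage markers at 1597 and 1315 CPM against 237 and 139 CPM, and neutrophil markers at 259.9 and 1337 CPM against 25.0 and 5.78 CPM. The part of these cells in the spleen values, including those of Ccr2 and Ly6c2, was not tested. The Cre and reporter alleles were compared without the deletion in male spleen Treg, where Foxp3cre differed from reporter cells in 20 genes (0.124%), 18 higher (0.111%) and 2 lower (0.0124%). Foxp3cre spleen pool 2 stood apart, with Foxp3 at 30.7 CPM against 145 CPM in pool 1 and with the highest sum of other-cell markers of the 19 T cell libraries, 27810 CPM. Without it 1 gene was called, and without pool 1 there were 69. In male VAT, with a single Foxp3cre library assumed to vary like the other groups, 2 genes were called higher (0.0124%) and 1 lower (0.00619%).

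Some gene groups, chosen after their values were seen, are given with their values in the other comparisons. The 78 ribosomal protein genes had a median log2 fold change of 0.63 in Blimp1-deficient over female VAT Treg. Of these genes 49 had an unadjusted p under 0.05 upward and 16 were called higher by DESeq2, against 2.79% and 0.433% of all genes. Their medians were 0.92 in the spleen counterpart, 0.95 between Foxp3cre and reporter males in spleen, where no Blimp1 deletion is named (0.96 without Foxp3cre spleen pool 2), and 0.11 between female and male reporter VAT Treg. In VAT their TMM-scaled sums were 37610 and 35310 CPM in the Blimp1-deficient and 26540 and 24550 CPM in the female pools. The male reporter pools held 23650 and 23800 CPM and the single Foxp3cre library 26580 CPM, below both Blimp1-deficient pools. The 215 immunoglobulin genes had a median of -2.28, beside the higher B cell marker sums of the female pools. Of these genes 52 were downward at an unadjusted p under 0.05 and 20 were called lower by DESeq2, against 5.04% and 0.829% of all genes. Of 4 nearly equal groups of genes by transcript length, the shortest had a median of 0.21 and the longest one of -0.32. Between female and male reporter VAT Treg these medians were 0.03 and 0.09, and between Foxp3cre and reporter males 0.20 and -0.17 in spleen (0.20 and -0.11 without Foxp3cre spleen pool 2) and 0.09 and -0.25 in VAT, from 1 Foxp3cre library. In Blimp1-deficient over female spleen Treg they were 0.14 and -0.01. Differences with transcript length were thus also present between Foxp3cre and reporter libraries without a named deletion, and their part in the values of single genes was not tested.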

How the data were processed

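RNA-seq of sorted mouse T cells was analysed from the gene-level read counts that the authors deposited, which are raw counts per gene. The submitters' processing notes name limma, featureCounts and Subread 1.6.2, with GRCm38 and mm10 as genome builds. The deposited log2 FPKM values were used only to check which column belongs to which sample, and all 19 T cell files correlated best with their own column. A set of 6 columns matched no sample and was left out.

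The 19 T cell libraries (11297674 to 61913009 assigned reads) were fitted together in 10 groups in R 4.3.3 with edgeR 4.0.16, using filterByExpr, TMM scaling and the quasi-likelihood test with Benjamini-Hochberg adjustment over all 17340 genes that passed, of which 16162 lie on autosomes by RefSeq (GRCm38.p6). DESeq2 1.42.0 was the alternative. Adjusted p-values are edgeR's unless stated. Intervals cover 95%. CPM values are TMM-scaled except in label checks and marker sums. A gene counted as called at an adjusted p under 0.05. The floor for a gene with no reads is 3 counts over the group and covers counting error only. Each library is a pool of mice, so p-values measure the spread between pools. The rule for named genes took called genes averaging at least 5 CPM with no overlap between groups, up to 3 called members of each list, key genes whatever their result, and genes called in the fat-spleen difference. The other list members named fall outside it and were chosen after their values were seen, as were the 3 promoters, since the rule for those found no called gene with the motif. The members and lists were chosen with earlier results of these data known. The sources used here do not give whether reads were counted by strand, so overlapping genes, and near-identical copies such as immunoglobulin segments, are uncertain. A few genes are not reported here. The scripts were tested on simulated data. Alternatives were another scaling, no filter on low counts, X and Y genes removed first, a replicate block, only the groups compared, and leaving out each library.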

Additional observations from a re-analysis of the deposited data

Results flagged for a closer look

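For 10 autosomal genes the log2 fold change of Blimp1-deficient over female Treg differed between fat and spleen by the edgeR test of that difference, fat minus spleen, and 9 of them are given here. Rsrp1, a splicing-related gene, differed by -3.70 (adjusted p = 0.000509), with 37.1 and 44.7 CPM in Blimp1-deficient and 68.7 and 46.4 CPM in female fat, against 462 and 446 CPM and 46.0 and 52.5 CPM in spleen. Ly6c2 differed by 4.28, Nkg7 by 2.18, and Ddit4, a stress-induced inhibitor of mTORC1, by -1.86. In spleen Rsrp1 also differed between Foxp3cre and reporter males without a named deletion, at 1.59 (adjusted p = 0.0316), and at 1.27 (edgeR adjusted p = 0.233) without Foxp3cre spleen pool 2, which stood apart. The other 5 genes had no reads in either female spleen library, and their fitted values of -11.19 (Fzd5), -10.72 (Aurkb), -13.44 (Cpe), -10.13 (Gins2) and -10.75 (Fndc10) depend on the prior count and are no bound. Taking 3 counts over the 2 female libraries as the floor, they were at least 113-fold, 171-fold, 176-fold, 110-fold and 59.2-fold higher in Blimp1-deficient spleen Treg, in that order. Among the spleen Treg libraries only the female ones lacked reads of these genes. In male reporter spleen Treg they stood at 8.15 and 7.26, 12.9 and 6.44, 10.8 and 5.18, 5.74 and 7.42, and 13.45 and 6.83 CPM, in the same order. The Foxp3cre spleen pools also held reads of all 5.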

How the results depend on the processing

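For Blimp1-deficient against female VAT Treg the 3 called genes became 57 with no filter on low counts, 0 with X and Y genes removed first, 1 with only the groups compared, 204 with DESeq2, and 40 without the 4 libraries highest in markers of other cells, an alternative chosen after seeing the data. Leaving out 1 library gave 0 to 12. The same settings were applied elsewhere. The 177 genes in spleen became 348 with no filter, 35 with only the groups compared and 751 with DESeq2, and 55 to 359 without 1 library, the highest without female spleen pool 2. The 10 genes that differed between fat and spleen became 39, 1 and 166 in that order, and 1 to 140 without 1 library, the highest again without female spleen pool 2. Against male reporter VAT Treg, the 467 genes of Blimp1-deficient cells became 744 with only the groups compared, 998 with DESeq2 and 966 without the 4 libraries, and 128 to 279 without 1 library. The 268 of female cells became 0, 481 and 454 in that order, and 86 to 196 without 1 library. The 20 genes between Foxp3cre and reporter spleen became 63 with no filter, 1 with only the groups compared, 326 with DESeq2 and 2 without the 4 libraries, and 0 to 69 without 1 library. The 3278 genes with an interval within -1 and 1 became 1862 to 2272 without 1 library. The causes were not tested. Spleen and fat-minus-spleen values were not computed without the 4 libraries, which include both female spleen pools. Neither Nkg7 nor Abcg1 turned direction under any of these settings. Among uncalled values, Ctla4 turned from -0.32 to 0.49 without female pool 1. Others turned without female pool 2, among them Pparg (-0.75 to 0.43), Areg (0.26 to -0.34), Rora (0.09 to -0.35) and Prdm1 (0.13 to -0.21). Without female pool 2 the medians of the lipid, fat Treg marker and type 2 lists turned from -0.39 to 0.27, 0.04 to -0.35 and 0.28 to -0.17, and list medians near 0 turned with either female pool.

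Replicate numbers do not pair the pools by any label, and the deviations of same-numbered pools correlated at 0.11 over 2 pairs. With the replicate number as a block, edgeR called 3 genes between Blimp1-deficient and female VAT Treg, and 5 in place of 20 between Foxp3cre and reporter spleen Treg.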
